A study of Mus musculus with 18 samples.

Results

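Chromatin accessibility was determined at the genes of interferons and of their receptors in bone marrow-derived macrophages (BMDMs), primary cells obtained by differentiating mouse bone marrow precursors in culture. The 9 genes, taken by name out of 21938 protein-coding genes of the GENCODE M21 annotation, were the interferon genes Ifnb1, Ifna1, Ifna2, Ifna4 and Ifng and the receptor genes Ifnar1, Ifnar2, Ifngr1 and Ifngr2. A gene's window was its body together with 50000 bp on both sides of its most upstream start site. The 9 windows, each of 100001 bp, held 106 of 82391 reference peaks, 108 of 84660 summits and 70 of 59617 extended regions. The outermost summit inside a window lay 31705 to 47873 bp from the start site, and the nearest summit outside it 50733 to 65388 bp away. The rule for genes and peaks used names and positions and no measured value.

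The assay was ATAC-seq, in which the Tn5 transposase places sequencing adapters into exposed DNA. All cells were wild type and received the vehicle DMSO for 1 h, and the study's methods give male C57/BL6 mice as the source. They were then left untreated or stimulated at 10 ng/mL with lipopolysaccharide (LPS), a component of the bacterial outer membrane sensed through Toll-like receptor signalling, or with the cytokine IL-4, for 30 min, 1 h, 2 h or 4 h. The 18 libraries formed 9 groups of 2 (1 untreated, 4 with LPS and 4 with IL-4), but the 3 deposited lists pool all of them. A peak in the lists therefore stands for accessible DNA somewhere among these conditions. Changes with LPS, IL-4 or time, the spread between replicates and the sequencing depth cannot be read from them.

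Interferons are secreted proteins that alert cells to infection. The type I interferons, encoded by Ifnb1 and a cluster of interferon alpha genes, bind a receptor made of the Ifnar1 and Ifnar2 chains, whereas interferon gamma, the type II interferon made mainly by T and NK cells, binds a receptor made of Ifngr1 and Ifngr2. Both receptors signal through JAK kinases and STAT factors, and macrophages stimulated with LPS are known to make interferon beta, to which they respond in turn.

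The DNA upstream of the type I interferon genes carries binding sequences for interferon regulatory factors (IRF). The Ifnb1 promoter is a textbook example of an enhancer on which NF-kB, IRF and ATF/Jun factors assemble. To compare the promoter that had a reference peak with promoters that had none in the lists, the 110 bases that end in the TATA box are shown for Ifnb1 (chr4:88522871-88522980, minus strand), Ifna1 (chr4:88849884-88849993, plus strand) and Ifna4 (chr4:88841661-88841770, plus strand) from RefSeq promoters of build GRCm38.p6, with the NF-kB consensus and the short IRF site AANNGAAA in capitals.
Ifnb1: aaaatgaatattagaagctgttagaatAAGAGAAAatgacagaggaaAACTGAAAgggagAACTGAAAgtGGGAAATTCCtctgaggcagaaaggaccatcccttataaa
Ifna1: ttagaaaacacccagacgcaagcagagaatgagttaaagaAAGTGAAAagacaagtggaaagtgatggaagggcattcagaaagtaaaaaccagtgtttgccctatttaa
Ifna4: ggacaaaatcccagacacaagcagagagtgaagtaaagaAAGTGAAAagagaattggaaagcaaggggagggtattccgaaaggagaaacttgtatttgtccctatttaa
The Ifnb1 stretch held 3 IRF sites, the last of them 2 bases before an NF-kB consensus. The Ifna1 and Ifna4 stretches held 1 IRF site each and no NF-kB consensus. In both of these, the site was part of an ISRE (GAAA, any 2 bases and GAAA), a longer IRF binding sequence that the Ifnb1 stretch lacked. Over the whole 300-base promoters, Ifnb1 and Ifna4 held 3 IRF sites each, Ifna2 held 2 and Ifna1 held 1.

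The start sites of the receptor genes held more CpG dinucleotides than those of the interferon genes, as given below for whole promoters. They are shown, with CG in capitals, as the 100 bases of mm10 (plus strand) centred on the summit at the start site, or shifted so as to end before it: chr16:91485023-91485122 for Ifnar1, chr16:91372683-91372782 for Ifnar2, chr10:19591816-19591915 for Ifngr1 and chr16:91546959-91547058 for Ifngr2.
Ifnar1: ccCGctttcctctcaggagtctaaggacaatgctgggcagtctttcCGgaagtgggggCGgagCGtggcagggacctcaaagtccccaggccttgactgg
Ifnar2: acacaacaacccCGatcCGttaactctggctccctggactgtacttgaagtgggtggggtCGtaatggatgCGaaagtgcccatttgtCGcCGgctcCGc
Ifngr1: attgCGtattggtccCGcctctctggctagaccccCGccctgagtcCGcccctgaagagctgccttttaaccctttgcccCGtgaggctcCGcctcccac
Ifngr2: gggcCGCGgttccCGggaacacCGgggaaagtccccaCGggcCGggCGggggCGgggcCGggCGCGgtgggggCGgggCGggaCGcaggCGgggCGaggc
The Ifngr2 stretch held 16 CpG and 86% G and C, the Ifnar2 stretch 7 CpG and 57%, the Ifngr1 stretch 6 CpG and 64%, and the Ifnar1 stretch 4 CpG and 62%.

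The receptor genes had listed peaks at their start sites and the interferon genes mostly did not. A reference peak lay within 1000 bp of an annotated start site in 4 of 4 receptor genes and in 1 of 5 interferon genes, Ifnb1. This made 5 of the 9 genes, beside 56.5% of all protein-coding genes. All 9 windows held a reference peak, beside 80% of protein-coding genes. The receptor genes had 20.75 ± 3.69 peaks per window (SD, n = 4 genes) and the interferon genes 7.2 ± 2.68 (SD, n = 5 genes), and the counts of the groups, 16 to 25 and 5 to 11, did not overlap. They did overlap nearer to the start site: within 20000 bp, Ifnb1 had 6 peaks and Ifnar1 had 5. The median over all protein-coding genes was 6 peaks (interquartile range 1 to 12), so that the interferon genes lay inside the usual range and the receptor genes above it. These genes are not replicates: Ifna1 and Ifna4 shared 5 peaks, which were 100% of those of Ifna1 and 83.3% of those of Ifna4, and Ifnar1 and Ifngr2 shared 8, or 38.1% of the peaks of each.

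**Figure D1:**
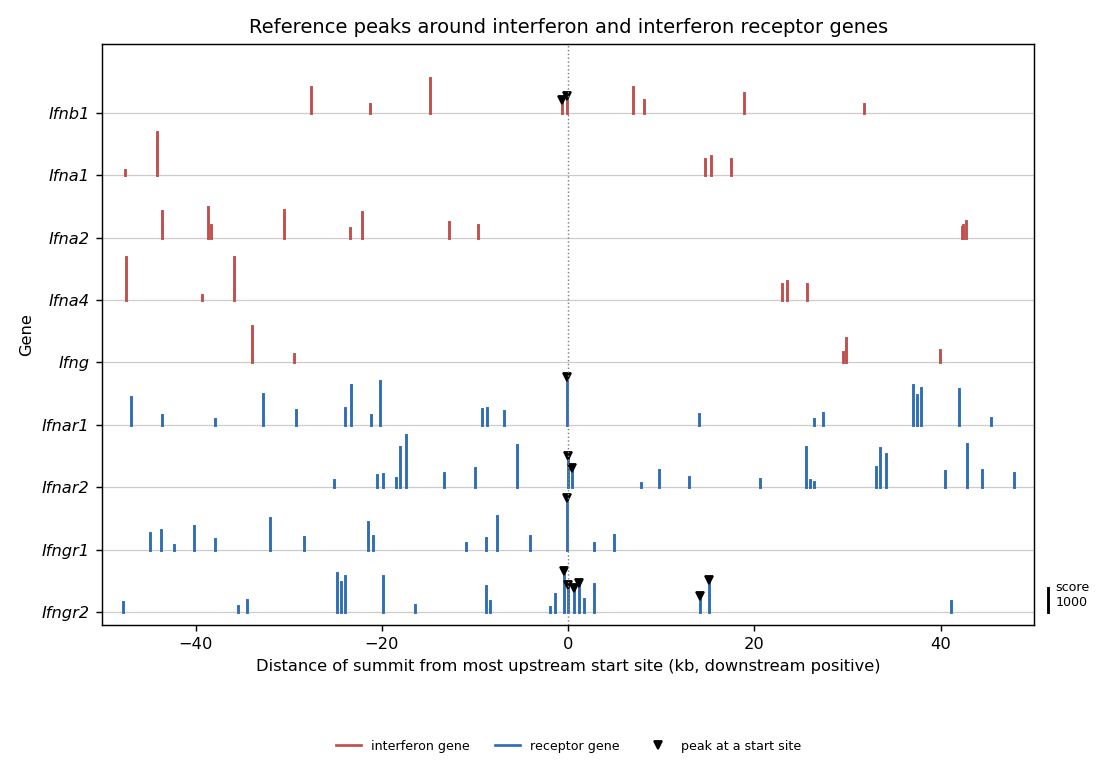
Best scored summit of each reference peak in the windows of the 9 genes, by distance in kb from the most upstream start site (x axis, downstream positive); the height of a line is the summit score, with a scale bar of 1000, and triangles mark peaks within 1000 bp of an annotated start site. All 4 receptor genes (blue) have triangles, with the most lines within 10 kb at Ifngr2 (10), while among the interferon genes (red) only Ifnb1 has triangles and the nearest lines of Ifng lie 29456 bp upstream and 29466 bp downstream.

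Each summit in the deposited list carries a score, a whole number given for the merged libraries, whose scale is not stated and which served here only to rank summits. Its median over the list was 737 (interquartile range 486 to 1153), and that over the 108 summits was 690 (interquartile range 464.75 to 1227). The medians of the interferon windows, 654 over 31 summits, and of the receptor windows, 706 over 77 summits, differed far less than the number of peaks did.

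Ifnb1, the gene of interferon beta, lies at chr4:88522025-88522774 on the minus strand. Its promoter peak (chr4:88522730-88522970) had its summit 93 bp upstream of the start site, just past the TATA box printed above, and a score of 685. A further peak (chr4:88523385-88523602) lay 713 bp upstream with a score of 515, and the authors' extended region chr4:88522030-88524302 joined both. The accessible stretch thus covered the NF-kB consensus and IRF sites. Its score was low for a promoter: only 8.47% of the protein-coding genes with a start site peak had a lower best score, their median being 1456.

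The best scored summit of the Ifnb1 window was not at the gene but 14791 bp upstream (chr4:88537451-88537740, score 1456). The others included 1 at 27591 bp upstream with a score of 1048 and 1 at 6959 bp downstream of the start site, beyond the gene's end, with a score of 1059. The remaining ones scored 802 at 18865 bp, 505 at 8166 bp and 349 at 31705 bp downstream, and 341 at 21279 bp upstream, so that only 4 of the 9 summits of the window exceeded the list's median. The ISRE, a binding sequence of interferon regulatory factors, was searched as GAAA, any 2 bases and GAAA on both strands within 100 bp of summits. It was found at 4 of the 9 Ifnb1 summits, those at 14791, 21279 and 27591 bp upstream and at 6959 bp downstream, beside 3.64% of all summits. These were all the ISRE matches in the interferon windows (4 of 31 summits, 12.9%), and the promoter summit was not among them. The 201 bases at the best scored summit (chr4:88537465-88537665, mm10, plus strand) are shown with their C/EBP and ISRE consensus in capitals.
Ifnb1 upstream summit: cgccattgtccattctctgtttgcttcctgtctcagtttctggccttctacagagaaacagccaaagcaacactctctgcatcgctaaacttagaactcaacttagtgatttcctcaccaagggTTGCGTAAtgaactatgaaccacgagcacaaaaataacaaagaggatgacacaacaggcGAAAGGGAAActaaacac

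The interferon alpha genes Ifna1, Ifna2 and Ifna4 encode closely related type I interferons and lay in the same cluster on chromosome 4, without a reference peak in their bodies or at their start sites. The nearest peak was 9561 bp from the start site of Ifna2, 14687 bp from that of Ifna1 and 22913 bp from that of Ifna4. Ifna1 (chr4:88850087-88850656) and Ifna4 (chr4:88841861-88842421) lay together in a stretch of 58602 bp with no peak (chr4:88806172-88864773), which also held Ifna5, Ifna6, Ifna7 and Ifna11 and was longer than 93.0% of the gaps between neighbouring peaks, whose median was 5102 bp. Ifna2 (chr4:88682881-88683912, minus strand) lay in a gap of 51811 bp with Ifna13, Ifna16 and Ifnab. Another such gap, of 90553 bp, held Ifna9, Ifna12, Ifna14 and Ifna15. In all, 0 of 14 interferon alpha genes of the cluster (Ifnab included) had a start site peak.

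Summit names carry numbers that run along the chromosomes and, with gaps, up to 217313, while 32.1% of these numbers occur in the list. In the gap around Ifna4 and Ifna1, 7 numbers were skipped, and in that around Ifna2 8. What had been called under the skipped numbers was not analysed here, so that a gap means no peak that passed into the lists, not closed chromatin.

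Because the interferon alpha genes are similar copies, the sequence around their start sites was tested for uniqueness, as a read of 76 bases has no unique place in a stretch that recurs. Of the 76-base stretches within 1000 bp of the start site, 15.5% occurred more than once in the genome for Ifna1, 4.47% for Ifna2 and 0% for Ifna4. The shares were 0% for Ifnb1 and Ifng and 0% to 3.89% for the receptor genes. With stretches of 38 bases, the shortest reads kept by the authors, the shares were 34.2% for Ifna1, 15.9% for Ifna2 and 9.83% for Ifna4. The part of repeated sequence in the missing peaks was not tested.

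In the windows of Ifna1 and Ifna4, 2 of 5 and 3 of 6 peaks lay at the start sites of other coding genes. Summits with scores of 1786, 1773 and 196, which lay 35877 to 47432 bp upstream of the Ifna4 start site, were at the start sites of Gm13275, Gm13288 and Gm13287, predicted coding genes next to Ifnz, the gene of interferon zeta. The 2 high scores exceeded those of 94.9% and 94.6% of all summits. Between Gm13271 and Gm13288 the list held 12 summits, and 6 of 14 coding genes there had a start site peak. Of the 12 summits, those with scores of 2087, 2048 and 1851 had central 76 and 38 bases that occurred once in the genome. At 8 of the 12, the central 76 bases occurred 10 to 18 times. Such a stretch, with 12 copies, is shown for the summit at Gm13275 (chr4:88794391-88794466, mm10, plus strand).
Gm13275 summit: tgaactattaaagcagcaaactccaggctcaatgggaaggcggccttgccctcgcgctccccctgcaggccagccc
How reads were divided among the copies is not stated, so that the score of 1786 cannot be assigned to this copy. The window of Ifna2 had 11 peaks, the most among the interferon genes, of which 2 lay at the start site of Klhl9 and had scores of 1248 and 505. Between Ifna2 and Klhl9, the summits 22150 and 30525 bp upstream of Ifna2 scored 1048 and 1141, and the nearest, at 9709 bp, scored 515. GAS/STAT matches were at 3 of the 11 summits, those 9709, 12757 and 22150 bp upstream, beside 6.35% of all summits. On the other side of Ifna2, 3 peaks in a stretch of 629 bp, with scores of 685, 505 and 448, separated its gap from that of Ifna12.

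**Figure D2:**
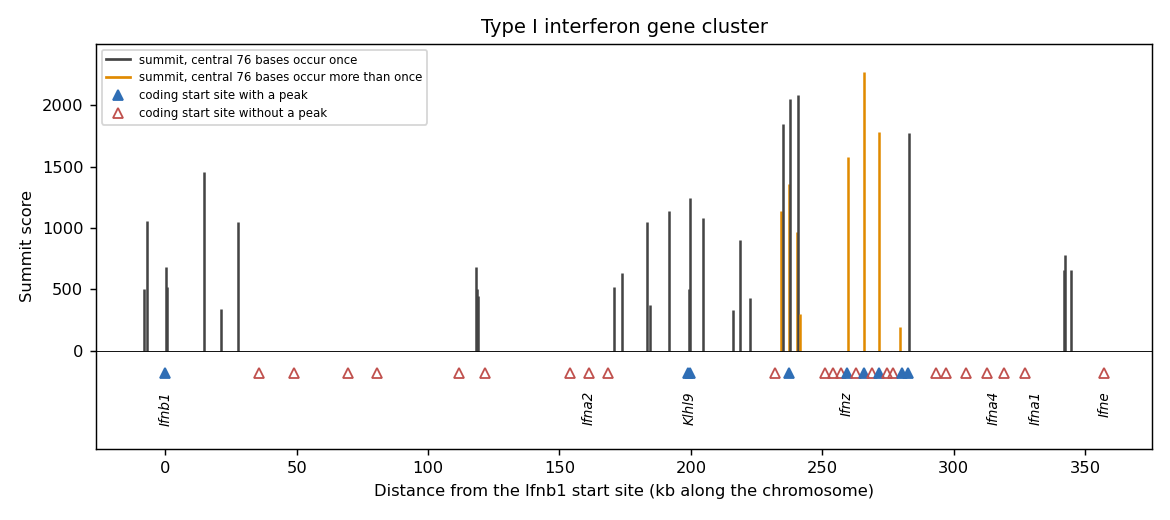
Summit scores (y axis) along the type I interferon cluster, by distance in kb from the Ifnb1 start site (x axis); orange lines are summits whose central 76 bases occur more than once in the genome, and triangles below are start sites of coding genes with (filled) or without (open) a reference peak. The interferon alpha genes around Ifna2, Ifna4 and Ifna1 have open triangles and no lines. The stretch around Ifnz has the highest scores, up to 2271 in repeated sequence and up to 2087 in sequence that occurs once.

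Ifng (chr10:118441046-118445892, plus strand), which encodes interferon gamma, had no start site peak either. Its window held 5 peaks, all at least 29349 bp from the gene's start, and the gene lay in a gap of 58726 bp that held no other coding gene. In T cells, Ifng is known to be controlled by elements spread far to both sides of it. The 5 summits lay 33983 bp upstream (score 1493), 29456 bp upstream (349), 29466 bp downstream (439), 29817 bp downstream (1013) and 39961 bp downstream (505). The one at 33983 bp upstream was the only one above the list's upper quartile of 1153. Its 201 bases (chr10:118406963-118407163, mm10, plus strand) held none of the 10 motifs searched and are shown without capitals.
Ifng upstream summit: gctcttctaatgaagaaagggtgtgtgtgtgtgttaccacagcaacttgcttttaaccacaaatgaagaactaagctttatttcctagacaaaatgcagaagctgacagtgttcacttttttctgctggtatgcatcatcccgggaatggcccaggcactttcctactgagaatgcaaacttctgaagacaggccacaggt

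Among the receptor genes, Ifngr1 (chr10:19591949-19610229), the ligand-binding chain of the interferon gamma receptor, had the best scored start site. A single peak of 729 bp (chr10:19591459-19592187) covered it, with its summit 83 bp upstream and a score of 2127, above that of 94.2% of protein-coding genes with a start site peak. Of its 16 peaks, 14 had their summit upstream of the start site, and the gene body beyond the start site held 2 weak ones, with scores of 274 and 593. The upstream peaks reached from 4105 to 44902 bp and had scores of up to 1406, at 7652 bp.

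Ifngr2 (chr16:91547072-91565623), the chain that joins the ligand-bound complex and carries the kinase JAK2, differed in form: 6 peaks lay at its 3 annotated start sites. Their summits lay at 481 bp upstream (score 1708), 58 bp upstream (1106) and, downstream, at 574 bp (1002), 1108 bp (1224), 14172 bp (664) and 15119 bp (1332). The extended region chr16:91544352-91550660 joined 8 peaks over 6309 bp, the most of the 70 extended regions at these genes. A separate peak 19831 bp upstream, at the start site of the microRNA gene Mir6367, scored 1480. The best of the start site scores, 1708, exceeded that of 67.4% of protein-coding genes with a start site peak.

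Ifnar1 (chr16:91485238-91507441), a signalling chain of the type I receptor that carries the kinase TYK2, had a single start site peak of 599 bp (chr16:91484879-91485477) with its summit 165 bp upstream. Its score of 1982 was above that of 86.5% of protein-coding genes with a start site peak. Inside the gene only 1 further peak was found, in an intron at 13998 bp with a score of 439. Upstream of the gene, the best scored summits lay 20222 bp away (score 1799), at the start site of the noncoding gene A930006K02Rik, and 23298 bp away (1644), both in stretches of 2 neighbouring peaks. The 3 peaks nearest to the promoter, 6912 to 9289 bp upstream, scored 573 to 695, below the list's median. Between Ifnar1 and Ifngr2 lay 3 peaks side by side (chr16:91522045-91523285) with scores of 1632, 1236 and 1518, at 36997 to 37884 bp from the start site of Ifnar1 and 23950 to 24837 bp from that of Ifngr2. The lists do not say which of the genes, if any, such peaks serve.

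Ifnar2 (chr16:91372783-91405589), the chain that binds type I interferons with high affinity, had the lowest start site score of the 4 receptor genes but the most peaks, 25. The summits at its start site lay 10 bp upstream (score 1308) and 385 bp downstream (802), and 39.7% of protein-coding genes with a start site peak had a lower best score. The best scored summit of all 9 windows lay 17394 bp upstream of it (chr16:91355150-91355636) with a score of 2166, above that of 99.4% of all summits. It was part of an extended region of 5 peaks (chr16:91351421-91356336), in which the summit at 18035 bp scored 1683. Nearer to the gene, the summit 5515 bp upstream scored 1734, so that 3 upstream summits outscored the start site itself. Downstream, the best scored summit lay at 42776 bp, in an intron of Gm21970, with a score of 1812. A further strong summit lay in an intron of Ifnar2 25479 bp downstream with a score of 1683. Peaks with scores of 823, 1644 and 1381 lay at the start site of the neighbouring Il10rb, a chain shared by the receptors of interleukin 10 and of the type III interferons. The 201 bases at the upstream summit (chr16:91355289-91355489, mm10, plus strand) are shown with an NF-kB consensus in capitals.
Ifnar2 upstream summit: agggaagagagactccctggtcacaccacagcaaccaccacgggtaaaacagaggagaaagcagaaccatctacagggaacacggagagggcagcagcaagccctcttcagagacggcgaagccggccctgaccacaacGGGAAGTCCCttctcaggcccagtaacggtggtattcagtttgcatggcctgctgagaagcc

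The peaks also differed in their distance from the start site, though not cleanly between interferon and receptor genes. Within 10000 bp of it lay 10 peaks of Ifngr2, 6 each of Ifnar2 and Ifngr1 and 4 each of Ifnar1 and Ifnb1, but 1 of Ifna2 and 0 of Ifna1, Ifna4 and Ifng. By the position of their best scored summit, 64 of the 106 peaks lay outside coding genes, 18 in introns, 11 within 1000 bp of a start site of the 9 genes, 8 within that distance of other coding genes and 5 of noncoding genes or pseudogenes. Of the 12 peaks that reached within 1000 bp of a start site of the 9 genes, 1 at Ifngr2 had its summit farther away and counted as intronic. All 18 intronic peaks were in the receptor windows, some of them in introns of the other genes Gm21970, Il10rb and Tmem50b. The interferon genes are short, and Ifnb1 and the interferon alpha genes have no introns. The part of gene structure in this count was not tested.

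The start sites differed in base composition, which the choice of genes did not use. In RefSeq promoters (250 bases before to 50 bases after the start site), the ratio of observed to expected CpG was 0.787 for Ifnar1, 0.752 for Ifnar2, 0.600 for Ifngr1 and 0.843 for Ifngr2. It was 0.443 for Ifng, 0.220 for Ifnb1, 0.129 for Ifna1, 0.126 for Ifna2 and 0.120 for Ifna4. The ranges of receptors and interferons did not overlap, and the median over 32851 promoters was 0.384 (interquartile range 0.176 to 0.750). Ifnb1 had a peak with a lower ratio than Ifng, which had none.

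**Figure D3:**
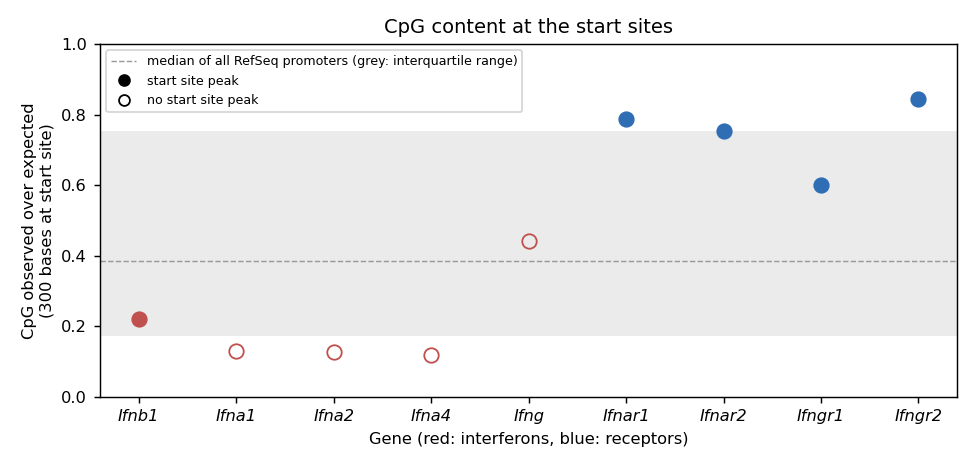
Ratio of observed to expected CpG (y axis) in the 300-base RefSeq promoter of each gene (x axis), with filled circles for genes with a start site peak and open circles for genes without; the dashed line and grey band are the median and interquartile range over all promoters. The 4 receptor genes (blue) lie at 0.600 or above and the 5 interferon genes (red) at 0.443 or below, with Ifnb1 the only filled red circle.

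The same promoters were searched for binding sequences. The short IRF site AANNGAAA, which is part of every ISRE match and was chosen after the Ifnb1 sequence had been seen, was in 5 of 5 interferon promoters and in 0 of 4 receptor promoters, beside 23.9% of all promoters. The full ISRE was in 3 interferon promoters, those of Ifna1, Ifna2 and Ifna4, beside 3.44% of all promoters. The interferon promoters with an ISRE had no reference peak, and that of Ifnb1, which had a peak, held no ISRE. An NF-kB consensus was in the promoters of Ifnb1 and Ifngr2, beside 4.51% of all promoters. The SP/KLF sequence GGGGCGGGG was in those of Ifna4, Ifnar1 and Ifngr2, beside 11.4%. A match is a run of letters and was not tested for binding.

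At the 108 summits in the windows, NF-kB matches were at 12 (11.1%), beside 5.55% of all summits. They were unevenly spread: 10 of the 77 receptor summits had one and 2 of the 31 interferon summits, with 5 of the 26 summits of Ifnar2, 4 of the 22 of Ifnar1, 4 of the 21 of Ifngr2 (3 of them shared with Ifnar1) and 0 of the 16 of Ifngr1. GAS/STAT matches (TTCNNNGAA) were also at 12 summits, beside 6.35% of all. Of these, 5 were in the interferon windows and 7 in the receptor windows. The ISRE was at 6 summits in all, and the short IRF site at 29 (26.9%), beside 21.8% of all summits.

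The sequences of other factors active in macrophages were about as frequent as in the whole list, or less so. AP-1 matches (TGANTCA) were at 16 summits (14.8%), beside 19.4% of all, and PU.1/ETS matches (GAGGAAGT) at 7 (6.48%), beside 9.08%. C/EBP matches (TTGCNNAA) were at 14 (13.0%), beside 11.4%. RUNX matches (TGTGGTTT) and SP/KLF matches were at 2 summits each, beside 3.34% and 4.46%, a CTCF match (CAGGGGGCG) was at 1, beside 1.03%, and CRE/ATF matches (TGACGTCA) were at 0, beside 0.938%. No motif was found at 51 of the 108 summits. With so few summits these shares are descriptions, and no test was made.

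**Figure D4:**
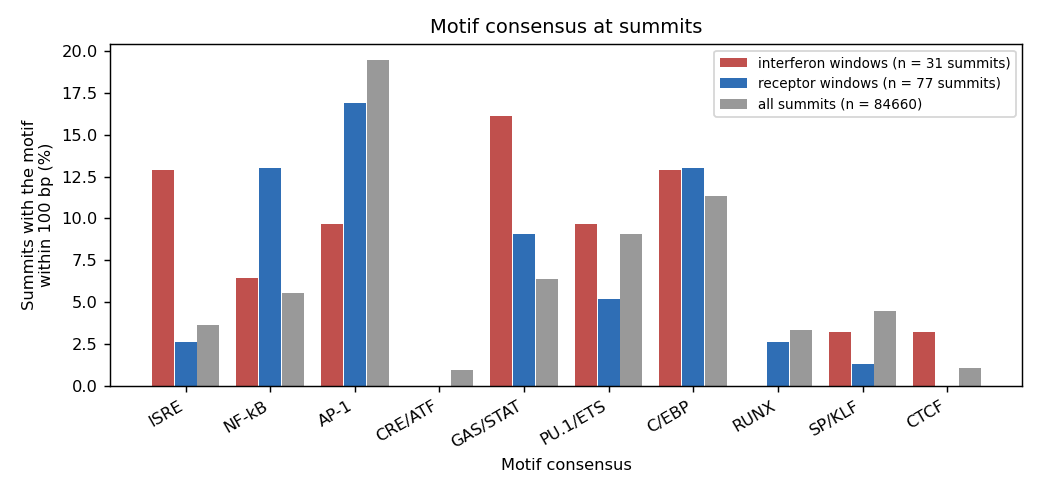
Share of summits (y axis, percent) with each motif consensus (x axis) within 100 bp, for the interferon windows (red, 31 summits), the receptor windows (blue, 77 summits) and all 84660 summits (grey). The red ISRE bar, 12.9%, comes from 4 summits of the Ifnb1 window, and the blue NF-kB bar, 13.0%, from 10 receptor summits.

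The genes around the interferon pathway were compared with the 9 genes by the same counts. Of 12 genes that carry the interferon signal (JAK kinases, STAT and IRF factors, inhibitors and effectors), 12 had a start site peak, with best scores from 1048 for Isg15, a ubiquitin-like effector, to 2140 for the kinase Tyk2 and a median of 1792.5. Of 15 genes for sensors, adaptors, kinases and factors that induce interferon genes, 15 had one, from 593 for Ddx58, which encodes the RNA sensor RIG-I, to 2140 for the kinase Ikbke. The 4 receptor genes, with a median of 1845, thus stood among them. Ifnb1, at 685, scored above Ddx58 and below Isg15.

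Of 13 further type I interferon genes (10 interferon alpha genes, Ifnab, Ifne and Ifnk), 0 had a start site peak, and their windows held 3 to 13 peaks with a median of 7. Ifnz, which was not in this list, had a start site peak with a score of 1581, and 83.8% of the 76-base stretches around its start site occurred more than once in the genome. In the stretch from Gm13271 to Gm13288 that holds Ifnz, 6 of 14 coding genes had a start site peak. The predicted genes among them were not in the list either, and whether they are type I interferon genes was not examined. Of the type III genes, the interferons Ifnl2 and Ifnl3 and the receptor chain Ifnlr1 had none, and Il10rb had a best score of 1644. LPS-induced cytokine genes gave a contrast to the interferon genes: 16 of 16 had a start site peak, from 332 for Il10 to 2074 for Ccl3. Their median was 28 peaks per window (10 to 46), beside 6 (5 to 11) for the 5 interferon genes, so that the ranges overlapped at their ends. Windows of neighbouring cytokine genes, such as Ccl3 and Ccl4, overlap, and these genes are not replicates either. Of 12 interleukin receptor genes, 11 had a start site peak (not Il13ra1). Their median was 11.5 peaks, beside 21 for the 4 interferon receptor genes, but their range of 5 to 35 enclosed the 16 to 25 of the latter.

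**Figure D5:**
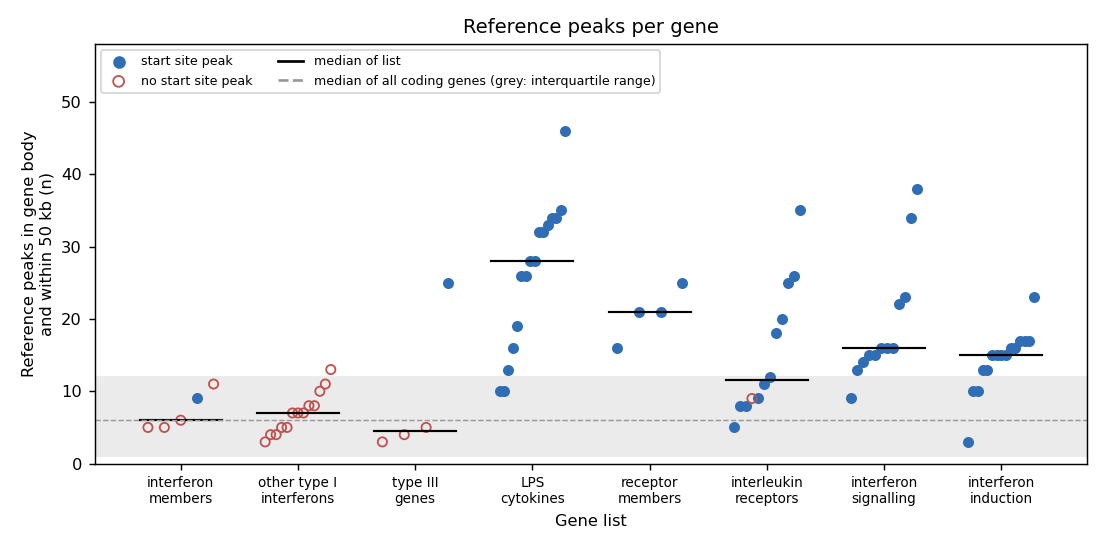
Reference peaks per gene window (y axis) for each gene of 8 lists (x axis), filled where the gene has a start site peak and open where it has none; black lines are list medians, and the dashed line and grey band are the median and interquartile range over all protein-coding genes. The interferon genes lie at 5 to 11, next to the other type I interferon genes at 3 to 13, and the receptor genes at 16 to 25.

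Marker genes were examined to see which cells the lists could stand for. All 8 macrophage markers had a start site peak, with best scores of 1176 to 2021, and 0 of 6 T and NK cell markers and 0 of 3 plasmacytoid dendritic cell markers had one. Of 3 B cell markers, 2 had one, Ms4a1 (1013) and Ebf1 (515), and of 3 fibroblast markers also 2, Col1a1 (613) and Pdgfra (402). T and NK cells are the usual makers of interferon gamma and plasmacytoid dendritic cells those of interferon alpha. Whether other cells contributed to the peaks at the 9 genes was not tested.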

How the data were processed

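ATAC-seq libraries of BMDMs were sequenced by the authors as single-end reads of 76 bases. Per the study's methods and the submitters' processing notes, adapters were removed with BBDuk, reads were trimmed with Trimmomatic 0.39 to no less than 38 bases and mapped to mm10 through ShortStack, filtered with SAMtools 1.9, and peaks were called with MACS2 2.2.6. No model was built and no local background or Tn5 shift was used, and duplicate reads were kept, which may offset a summit from the most exposed base and let PCR copies add to a score. Peaks that passed a strict q-value and overlapped between replicates entered the lists. Each of the 59617 extended regions was found to be its peaks with 700 bp added on both sides. How the libraries were merged into the lists is not given in the sources used here.

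The deposited lists hold positions only, apart from the score of each summit, a whole number given by the authors without a scale. They have 0 columns per library and 0 columns of other samples. No replicate, depth or precision per library could thus be derived, no test was made, and all values describe a single catalog.

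Windows, overlaps and motif searches were computed in Python 3.11.15 with pandas 2.3.3, numpy 2.4.6 and pysam 0.24.0 (samtools 1.23.1) and tested on simulated data. Positions are 1-based. All entries lay inside the chromosomes of GRCm38.p6, and genes came from GENCODE M21. RefSeq promoters were found for 9 of 9 genes. For Ifna2, the RefSeq start site lies 133 bp inside the GENCODE gene, and its sequence is not shown. Start sites, and the distances and promoters derived from them, are annotated positions, and where transcription begins was not determined. For Ifna1, the printed TATA box ends at chr4:88849993 and the annotated start is at chr4:88850087. Mb21d1 was matched through its synonym Cgas.

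Named were the 9 genes, their start site peaks and best scored summits, other genes whose start site lay in these peaks and, per gene list, those without a start site peak (or with one, where most lacked it) and the extremes of score. Genes of the gaps and summits described beyond this rule were chosen after their values were seen. The genes and lists were chosen with earlier results of these data known. Alternatives comprised other windows, start sites, score minimums, motif widths, summits at the genes themselves only and stretches of 38 bases.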

Additional observations from a re-analysis of the deposited data

How the results depend on the processing

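The count of 5 genes with a start site peak was the same within 500 and 2500 bp and with the most upstream start site only, and was 4 when summits had to reach the list's median score, as the scores of Ifnb1, 685 and 515, lay below it. The number of peaks depended on the window: 20000 bp in place of 50000 bp left 53 peaks and 35 extended regions, gene bodies alone 22 peaks and the score minimum 47. In windows of the gene body with 20000 bp, receptor genes had 10.5 peaks on average, with 100000 bp 36.75 and with the score minimum 9.5. Interferon genes had 2.2, 16.2 and 3.0, so that the receptor mean was higher under each. By distance alone, however, the counts of Ifnb1 (6) and Ifnar1 (5) within 20000 bp overlapped. With stretches of 38 bases, the repeated share rose to 34.2% for Ifna1, 15.9% for Ifna2, 9.83% for Ifna4, 5.14% for Ifnar1 and 15.2% for Ifnar2, since a shorter stretch recurs more often, and stayed at 0% for the other genes.

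Motif counts moved with the summits and the width searched. Only 24 summits lay in the gene bodies or within 1000 bp of a start site, so that counts there were lower. Of these 24, matches were at 0 for ISRE, RUNX and CTCF, 1 each for GAS/STAT, PU.1/ETS and SP/KLF, 2 for AP-1 and 4 each for NF-kB and C/EBP. The shares over all summits stayed those given above, such as 3.64% for ISRE, 19.4% for AP-1, 5.55% for NF-kB and 11.4% for C/EBP. Within 200 bp, ISRE matches were at 11 summits and GAS/STAT matches at 20, and within 50 bp, GAS/STAT matches were at 6, C/EBP matches at 7, PU.1/ETS matches at 4 and RUNX matches at 0. SP/KLF matches were at 5 within 200 bp (4.63%, beside 6.42%). The short IRF site, chosen after the Ifnb1 sequence was seen, gave 29 in place of 6 ISRE summits. No paired analysis was possible because the lists carry no column for a library or replicate. The depth behind the scores is unknown, and neither the conditions that gave a peak nor the error of a score can be derived.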

Other observations

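Summits in repeated sequence were few outside the stretch of predicted genes around Ifnz. Of the 108 summits, 2 had central 76 bases that occurred more than once in the genome, both at predicted genes near Ifna4, and 6 had central 38 bases that did. Of these 6, 3 lay in the windows of Ifnar1 or Ifngr2, with scores of 439, 298 and 458 and 2 copies each. The summit at Gm13288, with a score of 1773, occurred once as 76 bases and 12 times as 38 bases.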
